A study of Homo sapiens with 12 samples.

Results

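The 8 genes described here were chosen by name for squamous differentiation and epithelial defense, and 7 of them were measured among the 31720 rows of the array table, each row standing for 1 Ensembl gene ID. They were IVL (ENSG00000163207_at), FLG (ENSG00000143631_at), SPRR1B (ENSG00000169469_at), SPRR3 (ENSG00000163209_at), PI3 (ENSG00000124102_at), SLPI (ENSG00000124107_at) and LCN2 (ENSG00000148346_at), named from the list that defined the set, while SPRR1A (ENSG00000169474_at) was not analysed here. RNA came from 2 triple negative human breast cancer lines, MDA-MB-231, which has mesenchymal features, and SUM149, from an inflammatory breast cancer. Each line gave 3 arrays of Cas9 control cells, which received Cas9 without a guide RNA, and 3 arrays of AHR KO cells, made with a lentiviral CRISPR vector carrying guides against the first exon of the aryl hydrocarbon receptor gene. The KO cells were plated at serial dilution and selected with puromycin. The paper describes puromycin selection after transduction, with virus made from the vector with or without AHR guides. Whether the controls were also plated at serial dilution is not stated. The number of clones behind each KO group is not given, nor whether the 3 arrays of a group came from separate cultures, so the p-values measure the spread between arrays, which may be technical. The lines were grown in different media, with hydrocortisone and insulin added for SUM149 only, so line and medium cannot be told apart. The values are RMA expression values on the log2 scale, in which a difference of 1 is a 2-fold change, and array medians lay between 3.62 and 3.70. The AHR row and the rows of cell type markers could not be identified among the IDs, so the KO labels and the cell type were not checked against the data. The paper reports that the knockout itself was checked by DNA sequencing and immunoblotting.

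In stratified epithelium, keratinocytes that leave the basal layer build a cornified envelope beneath the plasma membrane. Involucrin (IVL) forms its early scaffold, the small proline-rich proteins (SPRR) cross-bridge it under the action of transglutaminases, and filaggrin (FLG) bundles keratin filaments in the same cells. The same epithelia secrete protection against proteases and microbes. Elafin (PI3) and the secretory leukocyte protease inhibitor (SLPI) are small proteins of the whey acidic protein family that inhibit neutrophil elastase, and lipocalin 2 (LCN2) withholds iron from bacteria by binding their siderophores. In human keratinocytes, AHR ligands are known to speed up terminal differentiation and to raise FLG and IVL. FLG, IVL and the SPRR genes neighbour each other in the epidermal differentiation complex on chromosome 1, PI3 and SLPI lie on chromosome 20 and LCN2 on chromosome 9.

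RefSeq promoter windows (build GRCh38.p14, 250 bases before to 50 after the gene start) were given for 6 of the 8 genes, all but PI3 and SLPI. They were searched on both strands for GCGTG, the core of the AHR response element, and for TGANTCA, the form of element bound by AP-1 factors, which has long been studied in the IVL and SPRR promoters. The motifs could share the letters TG, though GCGTG had no match here to share them. The core GCGTG was in 0 of the 6 windows, against 36.5% of 35116 promoter windows of the same length, which says only that these letters are not in this window. TGANTCA was in 6 of 6, against 7.71%. As this element was already known from IVL and SPRR promoters, matches there were likely beforehand. FLG, IVL and the SPRR genes also lie near each other, so these windows are not independent, and the excess was not tested. The bases before the start are printed for FLG, SPRR1B and LCN2, the genes with the 3 lowest KO-to-control differences in 1 or the other line, 5′ to 3′ in the direction of the gene, with the TGANTCA matches in capitals.
FLG, chr1:152325240-152325489, minus strand: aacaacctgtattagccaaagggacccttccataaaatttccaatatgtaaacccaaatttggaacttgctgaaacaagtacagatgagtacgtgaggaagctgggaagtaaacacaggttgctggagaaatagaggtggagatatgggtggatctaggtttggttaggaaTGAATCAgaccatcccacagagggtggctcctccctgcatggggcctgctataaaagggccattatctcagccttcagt
SPRR1B, chr1:153030953-153031202, plus strand: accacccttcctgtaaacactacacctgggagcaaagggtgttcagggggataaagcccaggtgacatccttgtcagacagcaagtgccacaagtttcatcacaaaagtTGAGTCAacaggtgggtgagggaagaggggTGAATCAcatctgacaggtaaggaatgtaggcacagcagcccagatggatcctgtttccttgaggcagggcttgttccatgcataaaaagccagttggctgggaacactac
LCN2, chr9:128149203-128149452, plus strand: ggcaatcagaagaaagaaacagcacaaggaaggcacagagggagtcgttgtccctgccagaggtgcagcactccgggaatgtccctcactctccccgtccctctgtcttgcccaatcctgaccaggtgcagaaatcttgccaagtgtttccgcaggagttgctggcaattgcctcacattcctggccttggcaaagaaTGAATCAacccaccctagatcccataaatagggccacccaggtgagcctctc
The match in FLG, TGAATCA, began 79 bases before the start, and LCN2 had the same 7 letters 52 bases before it. SPRR1B held 2 matches, TGAGTCA at 141 bases and TGAATCA at 111. TGAGTCA also stood 123 bases before the start of IVL, 108 before SPRR1A and 170 before SPRR3. These matches describe the sequence and are not binding sites shown by these arrays.

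**Figure D1:**
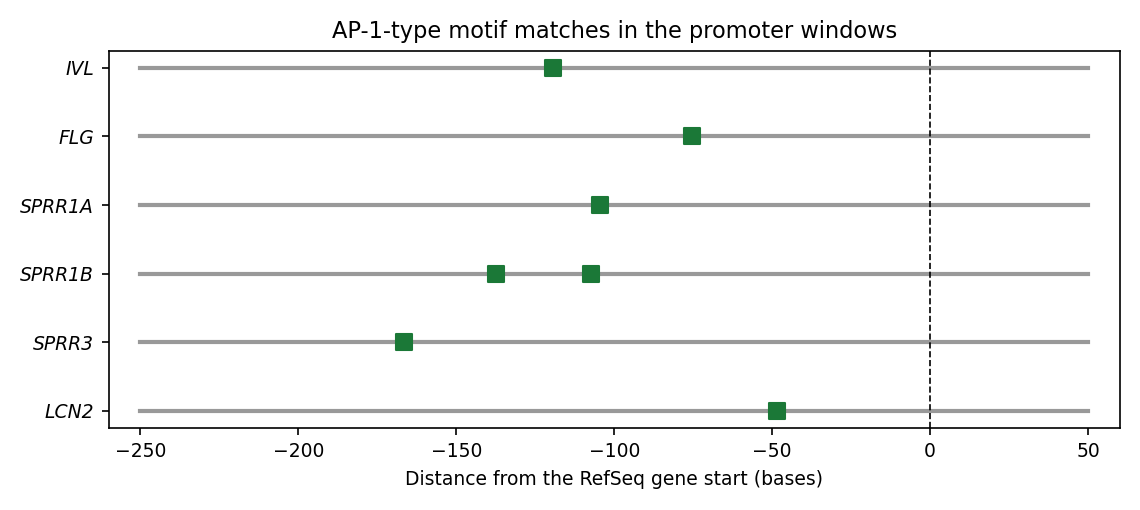
Places of TGANTCA matches (green squares) along 6 RefSeq promoter windows, with the distance from the gene start in bases on the horizontal axis and 1 gene per line. Each of the 6 windows holds at least 1 match, between 52 and 170 bases before the start (first base of the match), and SPRR1B holds 2.

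The cornified envelope genes had low to middling array values in both lines, and FLG was the only one of the 4 measured that moved past the threshold with AHR KO in either line. FLG in Cas9 control MDA-MB-231 cells read 4.26, 4.53 and 4.89 on the 3 arrays, and in AHR KO cells 3.28, 3.54 and 3.61. Every KO array lay below every control array. In SUM149 the FLG values were 3.07, 3.18 and 2.58 in controls and 2.51, 2.86 and 2.66 in KO cells, so that these groups overlapped. The order of the FLG means was thus control MDA-MB-231 (4.56 ± 0.32, SD, n = 3), KO MDA-MB-231 (3.48 ± 0.18), control SUM149 (2.94 ± 0.32) and KO SUM149 (2.68 ± 0.17), and of these neighbours only the last pair had overlapping arrays. Between 30.6% and 67.3% of rows read as low as FLG or lower on the 12 arrays, and 43.5% to 48.7% on the KO MDA-MB-231 arrays. Whether the FLG transcript was detected was not tested. Its pooled SD of 0.26 exceeded that of 90.9% of rows.

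SPRR1B, whose product is nearly the same as that of SPRR1A, so that probes may read both, gave the lowest signals of the set. The MDA-MB-231 arrays gave 0.84, 1.11 and 1.81 for controls and 0.79, 1.12 and 0.73 for KO cells. The SUM149 arrays gave 1.77, 2.35 and 2.26 for controls and 1.45, 0.99 and 1.57 for KO cells. The SUM149 controls were all above the SUM149 KO arrays, while the MDA-MB-231 groups overlapped. On each array, between 0.199% and 27.1% of all rows read as low as SPRR1B or lower, and no detection call was given, so whether the transcript was detected was not tested. Its replicate spread was wide, with a pooled SD of 0.35 that exceeded that of 97.4% of rows.

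IVL ran from 2.39 to 3.07 over the 12 arrays, with group means of 2.80 ± 0.03 (SD, n = 3) and 2.90 ± 0.16 in control and KO MDA-MB-231 cells and 2.58 ± 0.15 and 2.56 ± 0.16 in control and KO SUM149 cells. SPRR3 ran from 3.60 to 4.34, with means of 4.17 ± 0.26, 3.99 ± 0.01, 3.86 ± 0.13 and 3.84 ± 0.24 in the same order. For both genes, control and KO arrays of a line overlapped. In neither line did the transcript of the early scaffold protein or that of SPRR3 change past the threshold.

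The defense genes were set apart by line. PI3 read 5.26, 5.10 and 5.06 in control and 5.21, 4.97 and 5.25 in KO MDA-MB-231 cells. In SUM149 it read 11.14, 11.12 and 11.14 in controls and 11.35, 11.25 and 11.39 in KO cells, above at least 99.8% of rows on each of these arrays. SLPI, its neighbour on chromosome 20, followed the same line pattern. It read 4.53, 4.74 and 4.63 in control and 5.16, 5.12 and 5.34 in KO MDA-MB-231 cells, with no overlap between these groups. Between 62.8% and 71.8% of rows read as low as SLPI or lower on these MDA-MB-231 arrays, and its detection there was not tested. In SUM149, SLPI read 10.62, 10.57 and 10.65 in controls and 10.41, 10.49 and 10.50 in KO cells, again with no overlap but in the other direction. LCN2 read 4.34, 4.57 and 4.76 in control and 4.47, 4.42 and 4.95 in KO MDA-MB-231 cells, which overlapped. Its SUM149 values were 8.75, 8.71 and 8.50 in controls and 8.11, 8.24 and 8.17 in KO cells, all KO arrays below all controls. On the MDA-MB-231 arrays, the share of rows reading as low or lower was 68.1% to 70.8% for PI3 and 60.3% to 67.9% for LCN2. Their detection in that line was not tested either.

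**Figure D2:**
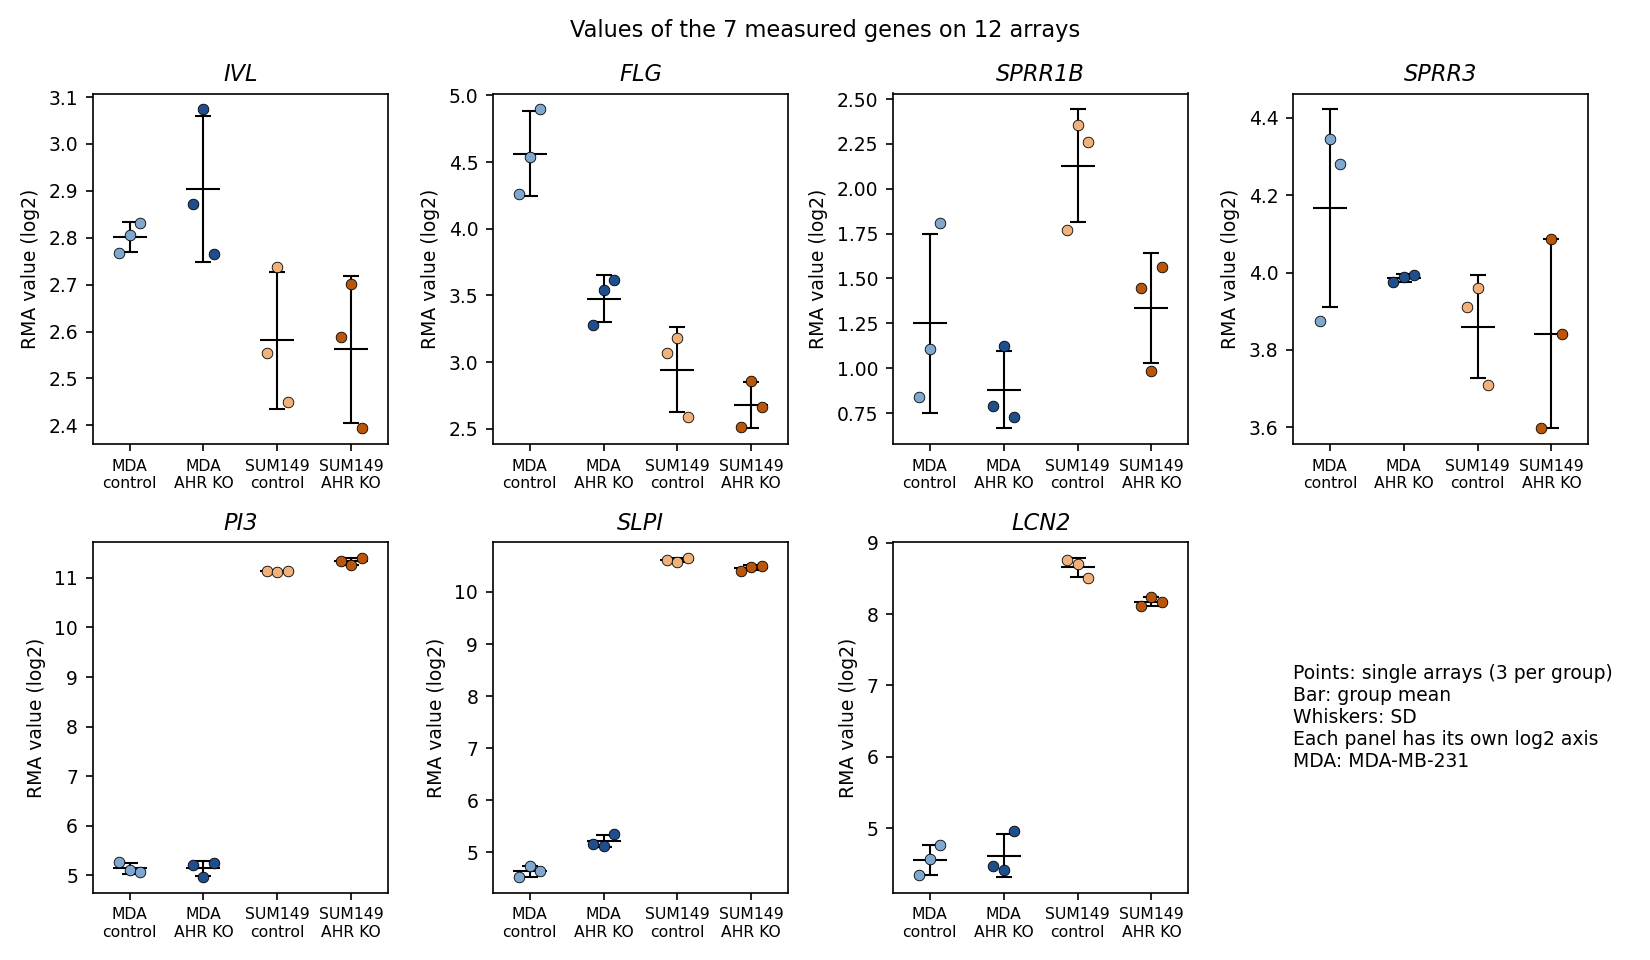
Array values of the 7 measured genes, with the RMA value (log2) on the vertical axis of each panel and the 4 groups along the horizontal axis. Points are single arrays, bars are means and whiskers the SD of 3 arrays. PI3 lies near 5 in MDA-MB-231 and above 11 in SUM149, and FLG is highest in MDA-MB-231 controls, from 4.26 to 4.89.

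Between the lines, the defense genes were far higher in SUM149, and FLG was higher in MDA-MB-231. In control cells, PI3 was higher in SUM149 by 5.99 on the log2 scale (standard error 0.08, adjusted p = 1.75e-12 from limma), a 63.6-fold difference, and SLPI by 5.98 (standard error 0.08, adjusted p = 1.25e-12), a 63.2-fold difference. LCN2 was 17.1-fold higher, by 4.10 on the log2 scale (standard error 0.15, adjusted p = 1.29e-09). Such gaps were rare, as 21 of 31720 rows were higher in SUM149 controls by as much as PI3, that row included. With detection in MDA-MB-231 not tested, the fold values of the defense genes between the lines are ratios of array signals. FLG ran the other way, lower in SUM149 controls by 3.07-fold (log2 difference -1.62, standard error 0.19, adjusted p = 2.30e-05 from limma). SPRR1B was higher in SUM149 controls by 0.88 (standard error 0.25, adjusted p = 0.0160), although the arrays of the lines overlapped. That call was lost without any 1 of MDA-MB-231 control replicates 1 and 2 or SUM149 control replicates 2 and 3 (adjusted p = 0.0685, 0.0559, 0.0631 and 0.0547).

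In all, 5 of the 7 genes differed between the lines in control cells, 4 of them higher in SUM149, where 35.4% of all rows differed (17.3% higher in SUM149 and 18.1% lower). The control arrays of the lines did not overlap for 5 of 7, against 45.3% of rows. IVL and SPRR3 were not called. IVL was lower on every SUM149 control array than on any MDA-MB-231 control array and SPRR3 overlapped, with differences of -0.22 (95% interval -0.45 to 0.01, adjusted p = 0.137 from limma) and -0.31 (-0.62 to 0.00, adjusted p = 0.122), the latter passing without MDA-MB-231 control replicate 1 (adjusted p = 0.0197). The median absolute difference in control cells was 1.62 for the 7 genes, which is the value of FLG, and 0.20 for all rows. In AHR KO cells the same medians were 0.80, again the value of FLG, and 0.21.

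In AHR KO cells, 5 of 7 also differed between the lines, where 37.3% of all rows did (18.2% higher in SUM149 and 19% lower). PI3 was then 73.0-fold higher in SUM149, SLPI 38.2-fold and LCN2 11.8-fold, and FLG was 1.74-fold lower (adjusted p = 0.00477 from limma). IVL was lower in SUM149 KO cells by a log2 difference of -0.34 (standard error 0.11, adjusted p = 0.0236), a call lost without MDA-MB-231 KO replicate 2 (adjusted p = 0.0978) or SUM149 KO replicate 3 (adjusted p = 0.0951), and also when only the 6 KO arrays were fitted (adjusted p = 0.0579). SPRR1B, at 0.45 (95% interval -0.09 to 1.00), and SPRR3, at -0.14 (-0.45 to 0.16), did not pass. These KO groups share no array with the control groups. Their cells come from the same 2 lines, however, and the fit used 1 estimate of spread for all groups. In the KO groups, 5 of 7 genes were without overlap between the lines, against 46.7% of rows.

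**Figure D3:**
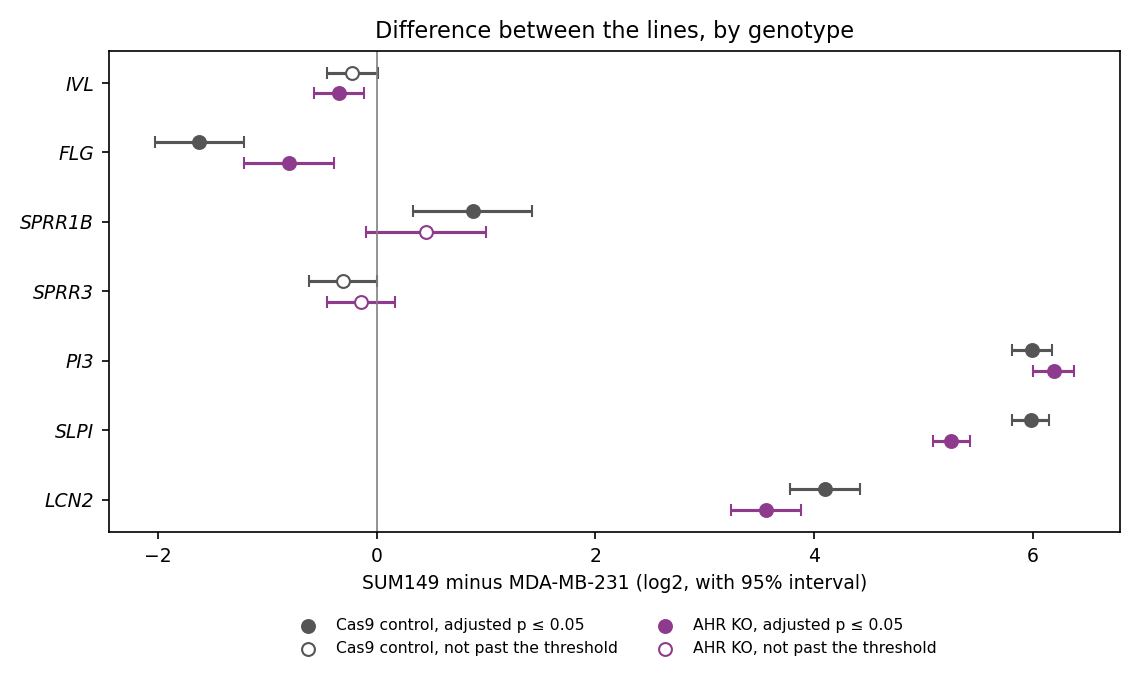
SUM149 minus MDA-MB-231 (log2) for each gene in Cas9 control (grey) and AHR KO cells (purple), with 95% intervals from limma and filled points for an adjusted p of 0.05 or less. SLPI falls from 5.98 in controls to 5.25 in KO cells, and FLG lies below 0 in both, at -1.62 and -0.80.

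AHR KO in MDA-MB-231 lowered FLG and raised SLPI. FLG fell by 1.09 on the log2 scale (standard error 0.19, adjusted p = 0.00758 from limma), a 2.13-fold decrease, and 54 of 31720 rows (0.17%) fell as far, FLG included. The fall ran from -1.24 to -0.92 over the 12 fits that each left out 1 array, with adjusted p-values of 0.00463 to 0.0365. SLPI rose by 0.58 (standard error 0.08, adjusted p = 0.00157), a 1.49-fold increase that 0.665% of rows matched or exceeded, and it was called in all 12 such fits. The gene making the other elastase inhibitor, PI3, showed a difference of 0.00 (95% interval -0.18 to 0.19), and LCN2 one of 0.06 (-0.26 to 0.38). SPRR1B, at -0.37 (-0.92 to 0.17), SPRR3, at -0.18 (-0.49 to 0.13), and IVL, at 0.10 (-0.13 to 0.33), also did not pass, with adjusted p-values of 0.527, 0.607 and 0.717. The 2 genes called of 7 stand beside 3.92% of all rows called in this line (2.19% lower and 1.73% higher), and the KO and control arrays did not overlap for the same 2 genes, against 22.1% of rows. The number of all rows called, 1243, fell to 807 without MDA-MB-231 control replicate 2, to 764 without control replicate 3, and to 775, 732 and 729 without KO replicates 1, 2 and 3. The median log2 fold change was 0.00 over the 7 genes as over all rows.

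In SUM149, LCN2 alone passed the threshold, and it did so narrowly. It fell by 0.48 on the log2 scale (standard error 0.15, adjusted p = 0.0452 from limma), a 1.39-fold decrease, and 4% of rows fell as far. The direction held in all 12 fits without 1 array, from -0.55 to -0.43, but the call was made in only 5 of them. It was lost without SUM149 control replicates 1 and 2 (adjusted p = 0.138 and 0.123), without SUM149 KO replicates 1, 2 and 3 (0.127, 0.0758 and 0.101), and without MDA-MB-231 control replicate 2 (0.0612) or KO replicate 1 (0.0516), 2 arrays that enter only through the shared estimate of spread. LCN2 thus lay lower on all 3 KO arrays, with a fall whose side of the threshold depended on single arrays.

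Of the 7 genes SPRR1B had the largest difference in SUM149, -0.80 (95% interval -1.34 to -0.25), a 1.74-fold lower mean that 1.34% of rows matched, but its adjusted p was 0.0504 from limma. It passed without MDA-MB-231 control replicate 1 or 3 or SUM149 control replicate 1 (adjusted p = 0.0375, 0.0173 and 0.0334), and the part of its dim signal in this was not tested. PI3 was higher on all 3 KO arrays by 0.20 (0.01 to 0.38, adjusted p = 0.149), and SLPI was lower on all 3 by -0.15 (-0.32 to 0.02, adjusted p = 0.249). The intervals are for single genes and do not allow for the number of genes tested. FLG differed by -0.27 (-0.68 to 0.14), IVL by -0.02 (-0.25 to 0.21) and SPRR3 by -0.02 (-0.33 to 0.29). The 1 gene called of 7 stands beside 16.8% of all rows called in SUM149 (8.23% lower and 8.59% higher), and groups without overlap numbered 4 of 7, against 31.8% of rows. The median was -0.15 for the 7 genes and 0.01 for all rows.

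**Figure D4:**
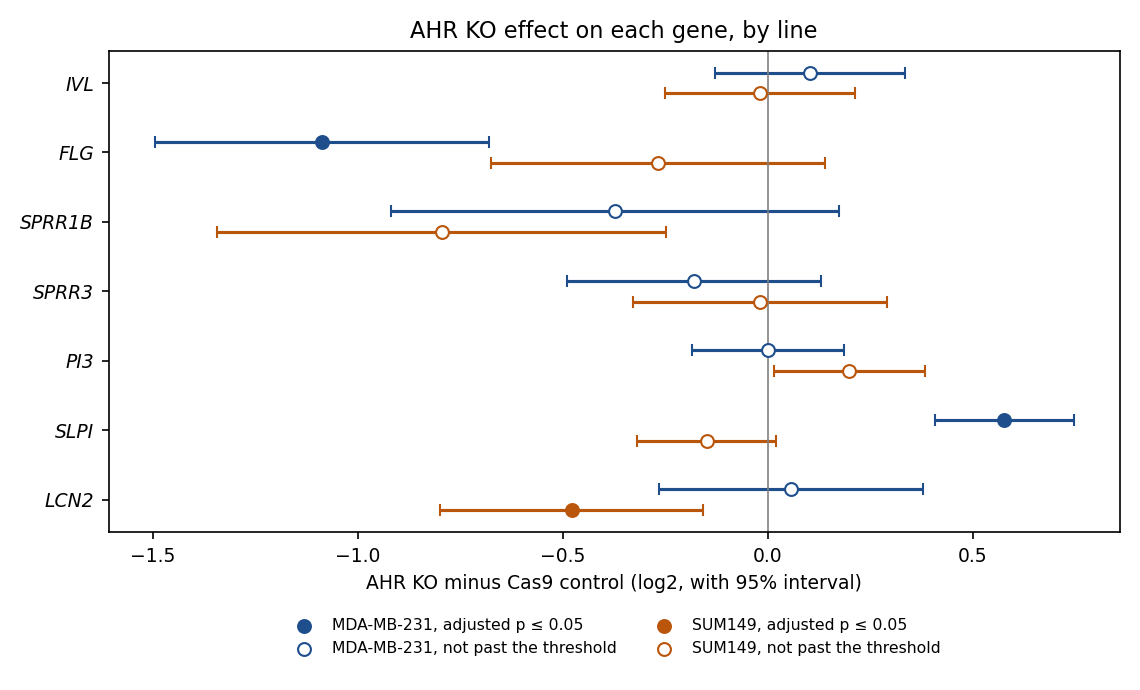
AHR KO minus Cas9 control (log2) for each gene in MDA-MB-231 (blue) and SUM149 (orange), with 95% intervals from limma and filled points for an adjusted p of 0.05 or less. FLG (-1.09) and SLPI (0.58) pass in MDA-MB-231 and LCN2 (-0.48) passes in SUM149.

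The KO effect itself differed between the lines for SLPI. Its effect in SUM149 was lower than that in MDA-MB-231 by 0.73 on the log2 scale (standard error 0.11, adjusted p = 0.00116 from limma's interaction contrast), and this passed in all 12 fits without 1 array. Although SLPI rose in MDA-MB-231, its level there stayed far below that of SUM149. For FLG the contrast was 0.82 (95% interval 0.24 to 1.40), with an adjusted p of 0.0653, so that its fall was not shown to differ between the lines, and of the 12 fits only that without MDA-MB-231 control replicate 1 passed (adjusted p = 0.0360). For LCN2 it was -0.54 (-0.99 to -0.08, adjusted p = 0.129), and the fall of LCN2 was likewise not shown to be particular to SUM149. The contrasts of SPRR1B, at -0.42 (-1.20 to 0.35), PI3, at 0.20 (-0.06 to 0.46), SPRR3, at 0.16 (-0.28 to 0.60), and IVL, at -0.12 (-0.45 to 0.21), did not pass. Across all rows the contrast was called for 13.2% (6.47% lower and 6.69% higher), and here for 1 of 7.

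With 1 KO effect fitted for both lines, as in a search for genes regulated by the AHR across cell types, FLG was the 1 gene of 7 called, where 3.78% of all rows were (2.12% lower and 1.66% higher). These 1198 rows became 587 to 629 when any 1 of the 6 SUM149 arrays was left out. FLG was lower in KO cells, at -0.68 on the log2 scale (standard error 0.17, adjusted p = 0.0474 in limma). Of the 7 genes, FLG alone is in the paper's list of genes significantly lower after AHR KO in both lines. That list comes from array profiles of the same cells, so it is not independent of this result, and its fit may differ from this one. Tested by line in limma, FLG passed in MDA-MB-231 (-1.09, adjusted p = 0.00758) but not in SUM149 (-0.27, adjusted p = 0.418). FLG means were lower in the KO cells of each line. The call across the lines was made in only 2 of 12 fits without 1 array. These were the fits without SUM149 control replicate 3 (adjusted p = 0.0194) or SUM149 KO replicate 2 (adjusted p = 0.0446), and the highest adjusted p of the others was 0.101. SPRR1B, also lower in both lines, gave -0.58 (95% interval -0.97 to -0.20, adjusted p = 0.0933) and passed without MDA-MB-231 control replicate 1 (adjusted p = 0.0414). The defense genes gave 0.10 (-0.05 to 0.25) for PI3, 0.21 (-0.04 to 0.47) for SLPI and -0.21 (-0.48 to 0.06) for LCN2. IVL, at 0.04 (-0.12 to 0.21), and SPRR3, at -0.10 (-0.31 to 0.12), lay close to 0.

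**Figure D5:**
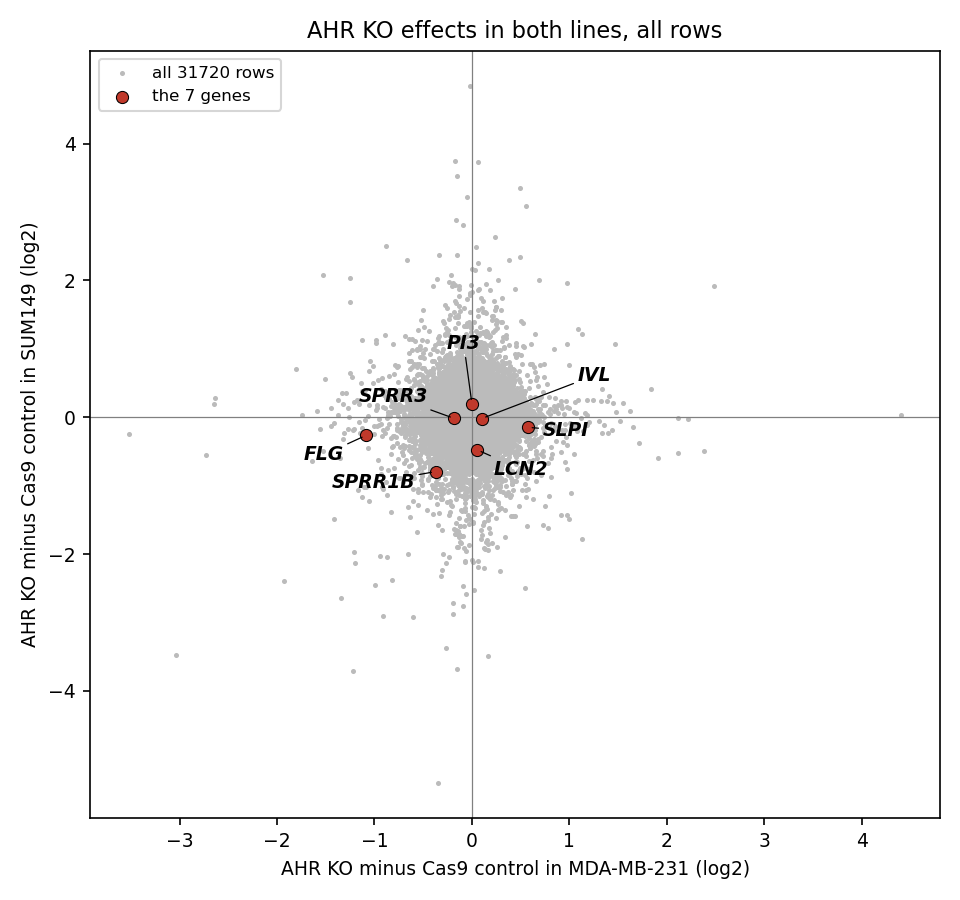
AHR KO minus Cas9 control (log2) in MDA-MB-231 (horizontal) against SUM149 (vertical) for all 31720 rows (grey) and the 7 genes (red). FLG lies at -1.09 and -0.27 at the left edge of the cloud, SPRR1B at -0.37 and -0.80, and the other genes lie within it or, for SLPI at 0.58 and -0.15, at its right edge.

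Over the 12 arrays, the profiles of PI3 and SLPI were close. With each gene centred on its own mean, their root mean square distance was 0.35 on the log2 scale, which placed SLPI 13th among the 31719 other rows by nearness to PI3 and PI3 10th by nearness to SLPI. LCN2 was 84th from PI3 and 69th from SLPI, at distances of 1.17 and 0.93. The 12 points share the gap between the lines, which makes up most of these profiles. After scaling each profile to unit standard deviation, SLPI stood 78th from PI3, and LCN2 stood 307th from PI3 and 141st from SLPI. The nearest rows themselves, at distances of 0.15 to 0.25 for the first 3 of PI3, carry no names in the sources used here. Among the cornified envelope genes the nearest pair depended on the scale. On the log2 scale it was SPRR3 and IVL, 0.18 apart, with IVL 1981st by nearness to SPRR3 and SPRR3 4809th by nearness to IVL. Profiles that vary little lie near each other on this scale whatever their pattern. After scaling, the nearest pair was SPRR3 and FLG, 0.64 apart, with FLG 97th by nearness to SPRR3 and SPRR3 2132nd by nearness to FLG.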

How the data were processed

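RNA from 12 samples was hybridised to Affymetrix whole human genome arrays. The authors deposited log2 values. The submitters' processing notes name RMA, affy 1.48.0 and R 3.2.3. RMA subtracts background, gives all arrays 1 distribution by quantiles and condenses the probes of a gene to 1 value. Neither the definition of probe sets nor the build is known here. Quantile normalization hides a shift shared by most transcripts, and differences from dim signals can be compressed.

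The values were tested as deposited, with no filter, by limma 3.58.1 in R 4.3.3. A model with 4 group means (8 residual degrees of freedom) gave the effects within lines, between lines and their difference. A model with cell line and 1 KO effect (9 residual degrees of freedom) gave the effect across lines. Adjustment was by Benjamini-Hochberg over the 31720 rows, with calls at 0.05. Exact permutation of 3 arrays against 3 cannot go below p = 0.1. The number of arrays limits precision. Tests were tried on simulated data. Of 21 alternative settings, 12 left out 1 array each. The tables were handled with Python 3.11.15, pandas 2.3.3 and matplotlib 3.10.9.

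The genes, lists and tests were chosen with earlier results of these data known. All 8 genes were to be named, with members of 135 further pathway and 40 marker symbols fixed in lists, and the 3 rows nearest to each gene. The reference paired 0 IDs with names, so these lists were not analysed and the nearest rows are unnamed.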

Additional observations from a re-analysis of the deposited data

Results flagged for a closer look

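SLPI was singled out because the AHR KO effect differed between the lines. The effect in SUM149 minus that in MDA-MB-231 was -0.73 on the log2 scale (adjusted p = 0.00116 from limma's interaction contrast). SLPI was higher on 3 of 3 KO arrays in MDA-MB-231 and lower on 3 of 3 in SUM149, where the change of -0.15 did not pass by itself (adjusted p = 0.249).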

How the results depend on the processing

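The number of genes called of 7 was 2 in MDA-MB-231 and 1 with a fold change of at least 1.5, which SLPI just missed. In SUM149 it was 1, and became 3 with a variance trend and robust moderation (SPRR1B, PI3 and LCN2), 2 on the 6 arrays of that line alone, and 0 with unmoderated statistics, at an adjusted p of 0.01 or at 1.5-fold. For the difference between the lines it was 1, and 2 (FLG added) without the dimmest 33.3% of rows, which removed SPRR1B, or with the variance trend. Across the lines it was 1, and 0 with unmoderated statistics or at an adjusted p of 0.01, and 2 (SLPI added, adjusted p = 0.0252) when the line effects were averaged. Without 1 array the numbers ran from 2 to 2 in MDA-MB-231, 0 to 2 in SUM149, 1 to 2 for the difference, 0 to 1 across the lines, and 4 to 5 between the lines in either genotype. Apart from the replicate block described below, no other setting moved a number of the 7 by over 1.5 times. The fit on the 6 KO arrays alone took the line difference in KO cells from 5 to 4 (IVL lost). The number of all rows called moved more. In MDA-MB-231, 1243 rows became 2313 with the variance trend, 516 with the replicate block and 538 on the 6 arrays of that line. Across the lines, 1198 became 1819 with the variance trend, 163 with the replicate block and 3847 when line effects were averaged. For the difference, 4173 became 2774 with the replicate block. An adjusted p of 0.01 left 520 rows in MDA-MB-231, 3464 of 5333 in SUM149, 2172 for the difference and 314 across the lines. A 1.5-fold threshold left 368, 1575, 2052 and 237 in the same order, and between the lines 5753 of 11235 in controls and 5752 of 11822 in KO cells.

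With the replicate number as a replicate block, 2 genes were called for the difference (FLG adjusted p = 0.0370) and 0 across the lines (FLG adjusted p = 0.138), and the other counts of the 7 did not change. The correlation between arrays of 1 number within a line, after removing group means, was -0.02 to 0.03. No large effect shared by such arrays was thus seen, but this cannot show whether they were cultured or processed together, which is not stated.

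Signs turned only for genes that were not called. PI3 in MDA-MB-231 gave -0.0091 with median-centred arrays and -0.052 to 0.086 without 1 array, LCN2 there -0.11 to 0.16, IVL in SUM149 -0.090 to 0.065, SPRR3 in SUM149 -0.14 to 0.10, and IVL across the lines -0.0031 to 0.086. A fold or stricter p threshold can only lower a count. The cause of the other changes was not tested.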
